A study of Mus musculus with 12 samples.

Results

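The genes described here encode the common gamma chain cytokine receptors of lymphocytes and the proteins that carry their signals: Il2rg, Il2rb, Il7r, Il21r, Il4ra, Il15, Il15ra, Jak3, Stat5a and Stat5b. They were taken by gene symbol as 10 of the 18211 genes in the expression table, with earlier results of these data known. All 10 were among the 13563 genes with enough counts to be tested. The table covers 12 tumors grown under the skin of female C57BL/6 mice, 5 weeks old at purchase, from MC38 cells, a single mouse colorectal adenocarcinoma line. The 4 groups were formed on day 7 after injection of the cells, and 3 tumors of each were sequenced. CK mice received the vehicle, PB-020 mice received the IGF-1R inhibitor PB-020 by oral gavage at 50 mg/kg per day, anti-PD-1 mice were injected with 200 μg of the antibody RMP1-14 on days 9, 12, 15 and 18, and PB-020/anti-PD-1 mice received both. PD-1 is an inhibitory receptor of activated T cells. The whole tumor was ground, so host lymphocytes, myeloid cells and MC38 cells contributed to every value, and fewer cells of a type cannot be told apart from less RNA per cell.

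Cytokines of this family, among them IL-2, IL-4, IL-7, IL-9, IL-15 and IL-21, share the receptor subunit encoded by Il2rg, which pairs with a chain specific to each cytokine. The shared subunit binds the kinase JAK3, the partner chain binds JAK1, and the kinases phosphorylate STAT proteins, mainly STAT5A and STAT5B for IL-2, IL-7 and IL-15. The signals sustain T cells and natural killer (NK) cells, and IL-15 is unusual in that a neighboring cell presents it on the IL-15 receptor alpha chain.

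The libraries held 16545394 to 17217035 expected counts (median 16927043), and members had between 70 and 2740 counts in a tumor. A pair of libraries stood apart in the summed levels of marker lists. Anti-PD-1 tumor 1 had a summed level of 603 FPKM over 10 skeletal muscle genes, against at most 65.8 in the other 11, and CK tumor 3 had 389 FPKM over 5 neutrophil genes, against at most 31.0. FPKM is the fragment count per kilobase of transcript scaled to library size, so it allows levels to be set side by side between genes. The 7 epithelial genes, listed because MC38 is labelled a colorectal line, summed to only 2.29 to 4.29 FPKM per tumor. Of the lists for host cells, 6 B cell genes summed to 0.40 to 1.41 FPKM, whereas 9 macrophage genes reached 733 to 1362 FPKM.

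Tumors of mice given anti-PD-1 held more transcripts of most receptor chains than tumors of mice without it. When the contrast was averaged over both PB-020 states, 6 of the 10 genes were raised and 0 lowered at an adjusted p under 0.05 (edgeR quasi-likelihood test, Benjamini-Hochberg over all genes tested), where 24.2% of all genes tested were called and 11.8% were raised. The 6 were Il7r, Il2rb, Il21r, Il2rg, Il15ra and Il15, in order of their log2 change from 1.13 down to 0.39. The median log2 change was 0.59 over the 10 genes and 4.49e-05 over all genes tested. The 4 genes that did not pass were the receptor chain Il4ra and the signaling genes Jak3, Stat5a and Stat5b, whose log2 changes lay between -0.12 and 0.12. With each library left out in turn, between 4 and 6 members passed, the lowest count being reached without CK tumor 2 or without PB-020/anti-PD-1 tumor 2.

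**Figure D1:**
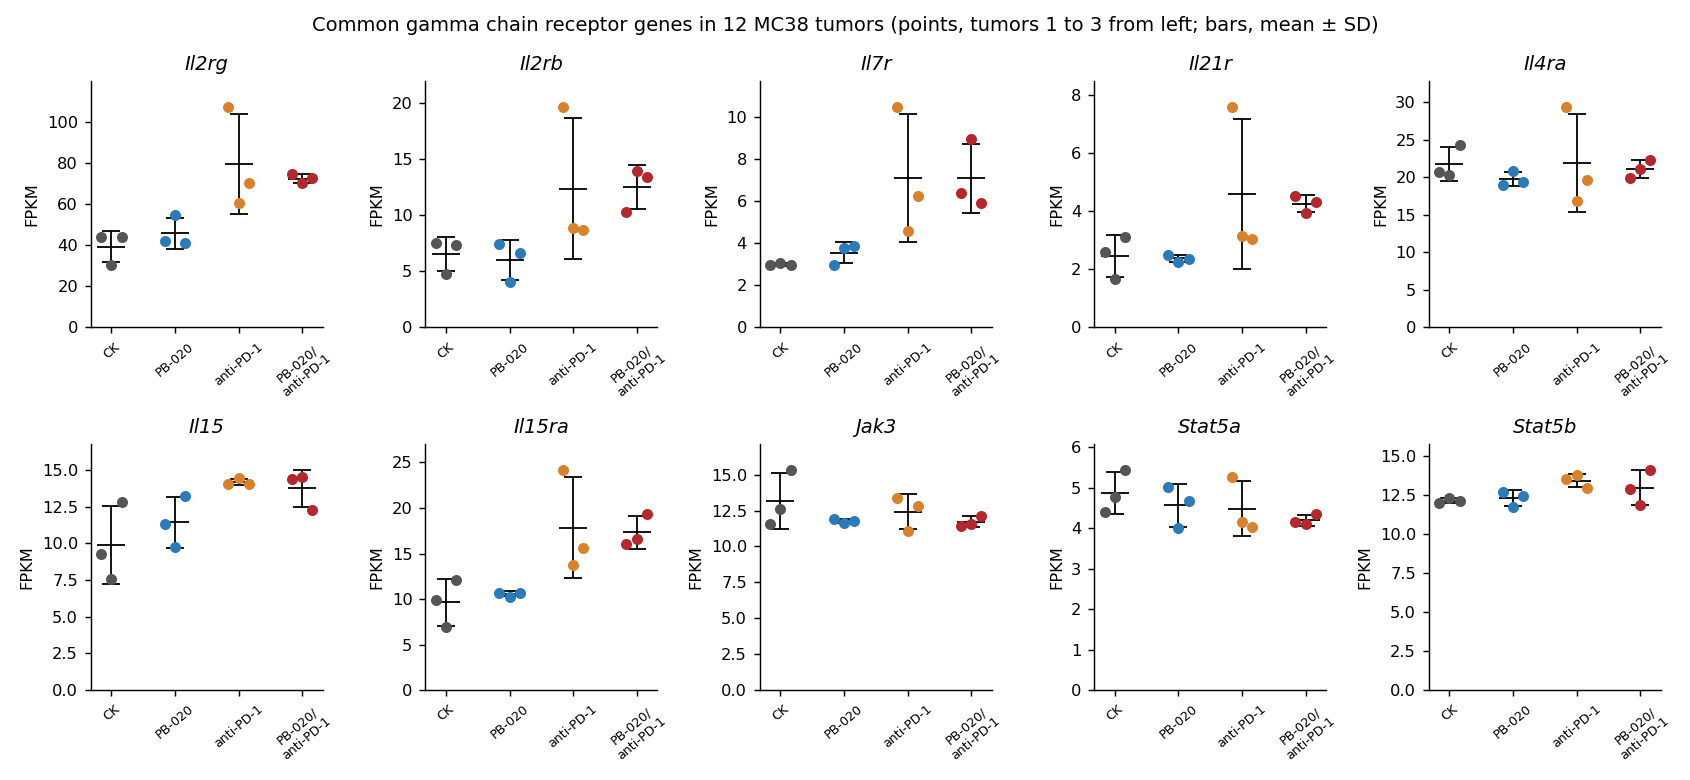
FPKM of each gene (y axis, from 0) in the 12 tumors by group (x axis); points are tumors 1 to 3 from left to right, and the bars are the group mean ± SD. The points of both antibody groups for Il2rg, Il2rb, Il7r and Il15ra lie above every CK and PB-020 point, while those of Il4ra, Jak3, Stat5a and Stat5b overlap them.

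The shared gamma chain was the most abundant of the 10 genes in every group. Il2rg lies on the X chromosome (chrX:101264385-101268255, GRCm38.p6). It measured 43.9, 30.4 and 43.9 FPKM in CK tumors 1 to 3 and 42.2, 54.6 and 41.0 FPKM in PB-020 tumors. In anti-PD-1 tumors it measured 107, 60.8 and 70.5 FPKM, and in PB-020/anti-PD-1 tumors 74.5, 70.2 and 72.7 FPKM. The 6 tumors with anti-PD-1 therefore stood above all 6 without it, and the combination tumors were the most alike (72.4 ± 2.15 FPKM, SD, n = 3, against 79.5 ± 24.4 with the antibody alone). Against CK, Il2rg rose by a log2 change of 1.04 (SE 0.22, adjusted p = 0.0225, edgeR) with anti-PD-1 and of 0.90 (SE 0.22, adjusted p = 0.0209) with the combination. These comparisons, like the others against vehicle, share the CK tumors.

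Il7r, the alpha chain of the receptor for IL-7, a cytokine needed for the survival of naive and memory T cells, showed the largest log2 change of the 10 genes. It lies on chromosome 15 (chr15:9506159-9529941). Its levels were 2.96, 3.08 and 2.99 FPKM in the CK tumors, the narrowest spread of any receptor gene there, and 2.97, 3.80 and 3.89 FPKM in the PB-020 tumors. They were 10.5, 4.59 and 6.26 FPKM in the anti-PD-1 tumors and 6.40, 8.97 and 5.93 FPKM in the combination tumors. No tumor with the antibody overlapped a tumor without it. The log2 change was 1.26 with anti-PD-1 (SE 0.27, adjusted p = 0.0224, edgeR) and 1.26 with the combination (SE 0.27, adjusted p = 0.0119).

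Il2rg, Il7r and Il15ra were raised together in both comparisons with CK, and the promoters of Il2rg and Il7r are shown because a motif match lay in them outside the annotated gene, while that of Il15ra lay inside it. Windows from 250 bases before to 50 bases after a start site were available in RefSeq for 8 of the 10 genes (11 windows). They were searched on both strands for the STAT recognition motif TTCNNNGAA and the ETS motif CCGGAAG. The first occurred in 1 of the 11 windows (8.3% of all 32851 mouse windows), that of Il7r, and the second in 2 (8.86% of all windows), those of Il2rg and Il15ra. No match of one motif overlapped a match of the other. The stretches below run 5′ to 3′ on the minus strand, from GRCm38.p6 as given by RefSeq. They cover chrX:101268256-101268505 for Il2rg and chr15:9529942-9530126 for Il7r, stop outside the annotated gene, and carry the match in capitals.
Il2rg: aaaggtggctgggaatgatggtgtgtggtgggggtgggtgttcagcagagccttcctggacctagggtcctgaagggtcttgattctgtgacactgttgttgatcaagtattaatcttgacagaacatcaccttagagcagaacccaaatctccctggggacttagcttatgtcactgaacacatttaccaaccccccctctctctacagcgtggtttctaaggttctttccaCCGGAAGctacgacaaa
Il7r: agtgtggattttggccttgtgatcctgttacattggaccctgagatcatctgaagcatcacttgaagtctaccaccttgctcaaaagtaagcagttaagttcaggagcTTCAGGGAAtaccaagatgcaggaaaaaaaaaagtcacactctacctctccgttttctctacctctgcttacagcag
The match in Il2rg, CCGGAAG, starts 17 bases before the start site, and that in Il7r, TTCAGGGAA, starts 142 bases before it. The Il2rg stretch (250 bases) runs up to its start site. The Il7r stretch (185 bases) stops short of the site used, because the annotated gene begins before that site. A match describes the letters only and says nothing of binding in these tumors.

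Il2rb encodes the beta chain that IL-2 and IL-15 receptors have in common and lies on chromosome 15 as well (chr15:78479256-78511621). It measured 7.52, 4.80 and 7.37 FPKM in CK and 7.45, 4.03 and 6.66 FPKM in PB-020 tumors. With the antibody the values were 19.6, 8.90 and 8.66 FPKM, and with the combination 10.3, 13.9 and 13.4 FPKM. Every tumor with anti-PD-1 lay above every tumor without it, yet tumor 1 carried much of the difference in the antibody group, where the log2 change against CK was 0.45 without it. With all tumors the log2 change was 0.92 in each comparison (SE 0.37 in both) and passed in neither (adjusted p = 0.146 with anti-PD-1 and 0.112 with the combination, edgeR), while the change averaged over both PB-020 states, 0.95 (SE 0.26, adjusted p = 0.0297), did pass. Without anti-PD-1 tumor 1 the combination itself passed (adjusted p = 0.037, over the alternatives 0.037 to 0.29). PB-020 tumor 2 had the lowest Il2rb and the highest Il2rg of the 6 tumors without the antibody, so its ratio of Il2rg to Il2rb in FPKM was 13.6, against 5.04 to 8.14 in the other 11 tumors.

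Il21r and Il4ra, which encode the specific chains of the IL-21 and IL-4 receptors, are neighbors on chromosome 7, with 23777 bases between the end of Il4ra (chr7:125552271-125579474) and the start of Il21r (chr7:125603252-125634397). Il21r measured 2.58, 1.68 and 3.11 FPKM in CK tumors, 2.5, 2.26 and 2.35 in PB-020 tumors, 7.56, 3.14 and 3.04 in anti-PD-1 tumors and 4.51, 3.95 and 4.31 in combination tumors. Anti-PD-1 tumor 3 fell below CK tumor 3, so the antibody group overlapped CK, whereas the combination group did not. Neither comparison with CK passed (log2 change 0.93, SE 0.32, adjusted p = 0.0935 with anti-PD-1, and 0.81, SE 0.32, adjusted p = 0.0992 with the combination, edgeR), but the averaged contrast did (0.88, SE 0.23, adjusted p = 0.0181). Without anti-PD-1 tumor 1, the log2 change with the antibody alone was 0.37, and the change with the combination passed (adjusted p = 0.0046, over the alternatives 0.0014 to 0.29).

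Il4ra gave 20.7, 20.3 and 24.3 FPKM in CK, 19.0, 20.8 and 19.4 in PB-020, 29.3, 16.8 and 19.6 in anti-PD-1 and 19.9, 21.1 and 22.3 in combination tumors. All 4 groups overlapped, and the log2 changes against CK were 0.05 (95% interval -0.31 to 0.41) with anti-PD-1 and 0.01 (-0.34 to 0.37) with the combination. Their sign turned in some alternative analyses. The ratio of Il4ra to Il21r, a description of both neighbors in the same tumor, was 3.88 to 6.46 in the 6 tumors with the antibody and 7.59 to 12.1 in the 6 without, with no overlap. The other ratios computed (Il2rg to Il2rb, Il15ra to Il15, Stat5b to Stat5a and Il2rg to Il7r) did overlap. How often ratios of other gene pairs separate in this way was not computed.

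Il15 encodes the cytokine of the family with the highest transcript level here, and Il15ra the chain that presents it. Il15 (chr8:82331624-82403252) measured 9.28, 7.59 and 12.8 FPKM in CK, 11.3, 9.76 and 13.2 in PB-020, 14.0, 14.4 and 14.1 in anti-PD-1 and 14.4, 14.5 and 12.3 in combination tumors. The antibody tumors differed little from each other (14.2 ± 0.22 FPKM, SD, n = 3), and anti-PD-1 tumor 1, which was the highest for 6 other members, did not stand out. CK tumor 3 lay above the lowest combination tumor, so those groups overlapped. The log2 change was 0.53 with anti-PD-1 (SE 0.16, adjusted p = 0.0549, edgeR), which did not pass, and 0.49 with the combination (SE 0.16, adjusted p = 0.0477), which did. The call with the combination held in 10 of 22 alternative analyses and in 4 of the 12 that left out a library (adjusted p 0.0039 to 0.19 over all of them).

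Il15ra (chr2:11705172-11733985) measured 9.93, 6.90 and 12.1 FPKM in CK and 10.7, 10.3 and 10.7 FPKM in PB-020 tumors. It measured 24.2, 13.7 and 15.6 FPKM in anti-PD-1 tumors and 16, 16.6 and 19.4 FPKM in combination tumors, all of them above the 6 tumors without the antibody. Il15ra rose by a log2 change of 0.92 (SE 0.22, adjusted p = 0.0277, edgeR) with anti-PD-1 and of 0.86 (SE 0.22, adjusted p = 0.0212) with the combination. The receptor chain and its cytokine were nearly level in CK (ratio of Il15ra to Il15 in FPKM 0.97 ± 0.09, SD, n = 3), and the ratio was 1.26 ± 0.41 in anti-PD-1 tumors, of which tumor 2 (0.95) lay within the CK range, and 1.28 ± 0.26 in combination tumors, none of which did.

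The signaling genes among the members, Jak3, Stat5a and Stat5b, moved little. Jak3, the kinase bound to the gamma chain, measured 11.6, 12.6 and 15.3 FPKM in CK tumors, 11.9, 11.6 and 11.8 in PB-020 tumors, 13.4, 11.1 and 12.8 in anti-PD-1 tumors and 11.4, 11.6 and 12.2 in combination tumors. CK tumor 3, the one with the high neutrophil transcripts, was the highest of all 12. The log2 change against CK was -0.06 (95% interval -0.25 to 0.14) with anti-PD-1 and -0.15 (-0.34 to 0.05) with the combination, so an increase of the size measured for Il7r lay outside both intervals.

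Stat5a and Stat5b encode the transcription factors that carry most of the signal to the nucleus, and they are neighbors on chromosome 11 with 346 bases between them (Stat5b, chr11:100780731-100859004, and Stat5a, chr11:100859351-100885169). Stat5a measured 4.40, 4.76 and 5.43 FPKM in CK, 5.02, 3.99 and 4.68 in PB-020, 5.26, 4.15 and 4.02 in anti-PD-1 and 4.14, 4.10 and 4.35 in combination tumors. The combination tumors lay below all CK tumors, by a log2 change of -0.20 (SE 0.12) that did not pass (adjusted p = 0.258, edgeR). Stat5b measured 11.98, 12.3 and 12.1 FPKM in CK, 12.7, 11.7 and 12.46 in PB-020, 13.6, 13.8 and 12.9 in anti-PD-1 and 12.9, 11.9 and 14.1 in combination tumors. The anti-PD-1 tumors lay above all CK tumors, by a log2 change of 0.17 (SE 0.07) that did not pass either (adjusted p = 0.134). Of the 150-base windows of the longest coding transcripts in GENCODE, 4.68% of Stat5a and 3.46% of Stat5b were identical in the other gene. A pair of reads lying wholly within these stretches matches both genes, so both values may be less certain, which was not tested.

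**Figure D2:**
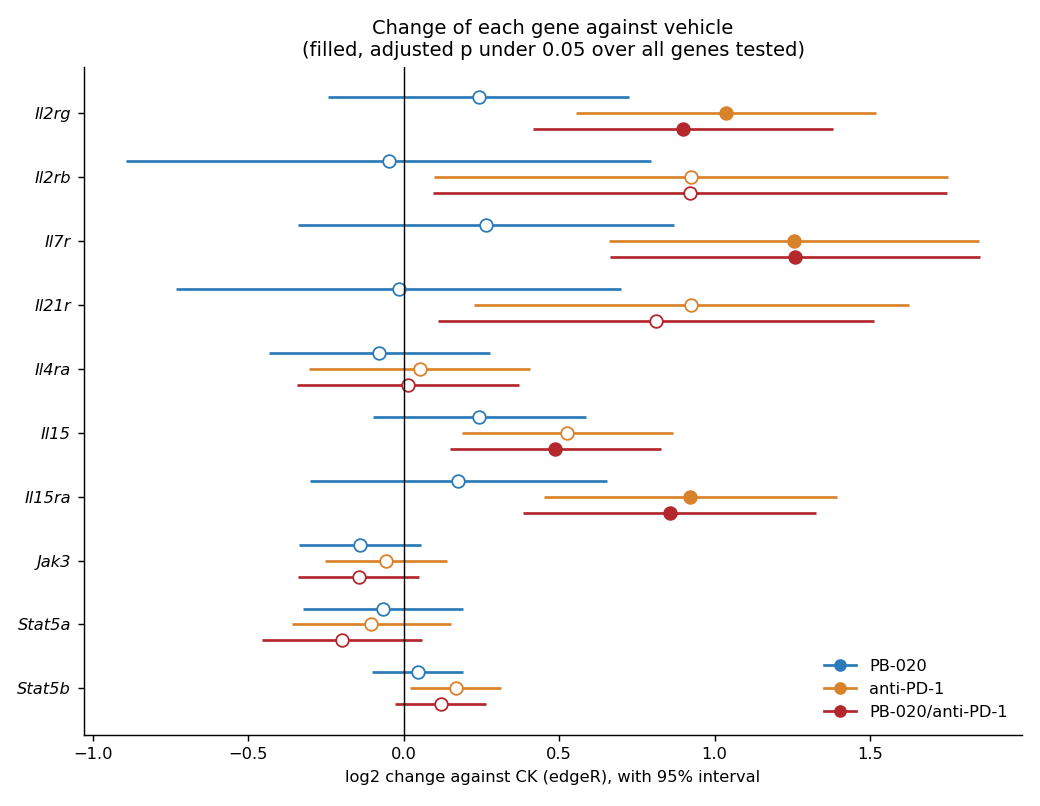
Log2 change against CK (x axis) of each gene (y axis) under each of the 3 treatments (colors), from edgeR; lines are 95% intervals and filled points passed an adjusted p of 0.05 over all genes tested. Il2rg, Il7r and Il15ra are filled for both treatments that held the antibody, Il15 for the combination alone, and no PB-020 point is filled.

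With anti-PD-1 alone, 3 of the 10 genes (Il2rg, Il7r and Il15ra) were raised against CK and 0 lowered, where 8.26% of all genes tested were called and 4.18% raised. Without adjustment, 7 members had a p under 0.05, as did 3609 of the 13563 genes tested. For 6 of them (Il2rb, Il2rg, Il7r, Il15, Il15ra and Stat5b) every antibody tumor lay above every CK tumor in FPKM, which held for 11.8% of all genes tested. The median log2 change was 0.72 over the members and 4.68e-04 over all genes. The count moved with single tumors, as did that of all genes called (1120 with all tumors). Without CK tumor 1, 1 member passed (748 genes in all), without CK tumor 2, 0 passed (137 in all), without anti-PD-1 tumor 3, 0 passed (238 in all), and without anti-PD-1 tumor 1, 3 passed (625 in all). A fit to these 6 tumors alone called 0 members and only 3 genes in all, and DESeq2 called 5 members and 1672 genes.

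With PB-020/anti-PD-1, 4 of the 10 genes (Il2rg, Il7r, Il15 and Il15ra) were raised against CK and 0 lowered, where 17.9% of all genes tested were called and 8.35% raised. For 5 genes (Il2rb, Il2rg, Il7r, Il21r and Il15ra) every combination tumor lay above every CK tumor, which held for 17.9% of all genes tested. For 1 gene, Stat5a, every combination tumor lay below, which held for 22.4% of them. The members' median log2 change was 0.65, and that of all genes -0.0026. The count was 1 without CK tumor 2 (864 genes in all, against 2434 with all tumors) or PB-020/anti-PD-1 tumor 2 (1160 in all), 2 without PB-020/anti-PD-1 tumor 1 (1085 in all) or 3 (2045 in all), and 6 without anti-PD-1 tumor 1 (3344 in all). That last tumor is in neither group compared. It enters through steps shared by all libraries: the filter, the scaling, the estimate of the spread and the set of genes adjusted over.

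Adding PB-020 to the antibody did not change any of the 10 genes detectably. When the combination was set against the antibody alone, 0 members were called, as were 0% of all genes tested (984 of them had an unadjusted p under 0.05, but none of the members), and the ranges of the groups overlapped for all 10 genes, while they did not overlap for 10% of all genes tested. The log2 difference between combination and antibody was 0.00 for Il7r (95% interval -0.57 to 0.57), -0.14 for Il2rg (-0.61 to 0.33), 0.00 for Il2rb (-0.81 to 0.80) and -0.07 for Il15ra (-0.53 to 0.39). The intervals of Il2rb and Il2rg, and that of Il21r (-0.80 to 0.57), are wide enough to hold a difference of 1.5-fold. The interaction of both drugs was called for 0 members and 0% of all genes (310 had an unadjusted p under 0.05, and again no member). PB-020 averaged over both antibody states gave 0 members and 0% of all genes as well (1475 and 0 members at an unadjusted p under 0.05).

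PB-020 alone gave no detectable change in any of the 10 genes. Against CK, 0 members were called, as were 0% of all genes tested (edgeR, 741 genes and 0 members at an unadjusted p under 0.05, and DESeq2 also called 0 members). The groups overlapped for all 10 members, while they did not overlap for 14.9% of all genes tested. The log2 changes ran from -0.14 for Jak3 to 0.26 for Il7r, 5 genes being higher and 5 lower. The interval for Il2rg was -0.24 to 0.73 and that for Il7r -0.34 to 0.87.

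When PB-020 was given in both arms, the antibody contrast called 0 members, where 3.35% of all genes tested were called and 1.25% raised. Of the 10 members, 8 still lay higher with the antibody and 2, Jak3 and Stat5a, lower. The log2 difference between the combination and PB-020 was 0.99 for Il7r (SE 0.27, adjusted p = 0.068, edgeR), 0.97 for Il2rb (SE 0.37, adjusted p = 0.16) and 0.68 for Il15ra (SE 0.21, adjusted p = 0.094). It was -0.13 for Stat5a (SE 0.12). Without adjustment, 5 members had a p under 0.05, as did 3044 of all genes tested. Without anti-PD-1 tumor 1, 4 members were called in this comparison (1269 genes in all, against 455 with all tumors), without anti-PD-1 tumor 2, 1 was (738 in all), and DESeq2 called 3 (1109 in all).

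Across all 12 tumors, the 6 with anti-PD-1 lay above the 6 without it, with no overlap, for 4 genes: Il2rb, Il2rg, Il7r and Il15ra. This held for 3.54% of all genes tested. The ranges were 60.8 to 107 against 30.4 to 54.6 FPKM for Il2rg, 4.59 to 10.5 against 2.96 to 3.89 for Il7r, 8.66 to 19.6 against 4.03 to 7.52 for Il2rb, and 13.7 to 24.2 against 6.90 to 12.1 for Il15ra. The gap was narrowest, relative to the values beside it, for Il2rg, between PB-020 tumor 2 and anti-PD-1 tumor 2.

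The order of the levels shifted with these changes. In CK tumors Il2rg (39.4 ± 7.75 FPKM, SD, n = 3) and Il4ra (21.8 ± 2.22) led without overlapping each other or the next gene. Jak3, Stat5b, Il15, Il15ra, Il2rb and Stat5a followed, each overlapping its neighbor in the order, and Il7r (3.01 ± 0.06) and Il21r (2.46 ± 0.72) came last and overlapped. In combination tumors Il2rg and Il4ra again led, Il15ra (17.3 ± 1.82) had moved from the sixth to the third place, and Stat5a (4.20 ± 0.13) was last, overlapping Il21r (4.26 ± 0.28). Il4ra and Il15ra no longer separated in the anti-PD-1 group, where their ranges overlapped.

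Transcripts of several other cell types moved with the receptor genes, those of T cells and NK cells upward. The summed FPKM of 15 T cell genes, such as Cd3e and Cd8a, none of them a member, was 17.2 to 23.5 in CK, 24.9 to 31.7 in PB-020, 39.2 to 94.5 in anti-PD-1 and 46.3 to 72.7 in combination tumors. Of these 15 genes, 12 were raised with anti-PD-1 and 13 with the combination, none lowered, with median log2 changes of 1.51 and 1.55. Over all genes tested, 4.18% and 8.35% were raised in these comparisons. The 7 NK cell genes summed to 6.98 to 8.29 FPKM in CK, 5.65 to 8.85 in PB-020, 8.11 to 18.3 in anti-PD-1 and 13.4 to 18.3 in combination tumors, and 3 of the 7 were raised in each antibody group. Of 9 macrophage genes, 0 were called against CK in any group, with sums of 787 to 1015 FPKM in CK and 884 to 1013 in combination tumors and the highest sum, 1362, in anti-PD-1 tumor 1. Other lists moved downward: 4 of the 4 tested erythroid genes were lowered in both antibody groups, with sums of 564 to 1195 FPKM in CK, 349 to 815 in PB-020, 79.0 to 293 in anti-PD-1 and 95.2 to 148 in combination tumors. Of 7 fibroblast genes 3 were lowered in both, with sums of 1876 to 2514 FPKM in CK, 1777 to 1831 in PB-020, 855 to 1593 in anti-PD-1 and 887 to 1242 in combination tumors. Of all 13563 genes tested, 553 were lowered with anti-PD-1 and 1302 with the combination. No gene of these lists was at 0 in all tumors. The part of these cell types in the receptor changes was not tested.

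Set against the T cell genes of the same tumor, the mean of every member was lower than in CK in all 3 treated groups, PB-020 alone included (-0.50 to -0.11 over the members on the scale given next). The same T cell mean is subtracted from every gene, so a rise of that mean lowers all members together. The log2 CPM (counts scaled to library size) of each gene minus the mean of the T cell list, with the CK mean at 0, was -0.54 to 0.15 for Il7r in the 6 tumors with the antibody, which overlapped the CK range of -0.16 to 0.26. For Il2rg it was -0.86 to -0.05, overlapping CK at -0.13 to 0.10, and for Il15ra -0.91 to -0.15, overlapping CK at -0.22 to 0.17. For Il2rb it was -0.62 to -0.32 and lay below all CK tumors (-0.22 to 0.11), as did PB-020 tumors 2 and 3. The genes with small changes fell furthest behind the list, Jak3 with -2.15 to -0.93 and Il4ra with -1.75 to -1.04, and Il15 spread from -1.66 in anti-PD-1 tumor 1 to -0.23 in anti-PD-1 tumor 2. That order follows from the shared subtraction. In PB-020 tumors the T cell mean lay 0.25 to 0.49 above CK, and 0 of the 15 T cell genes were called. Their ranges overlapped CK for Il2rb, Il2rg, Il7r, Il15 and Il15ra and lay below it for Il21r, Il4ra, Jak3, Stat5a and Stat5b. These values describe levels and were not tested.

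**Figure D3:**
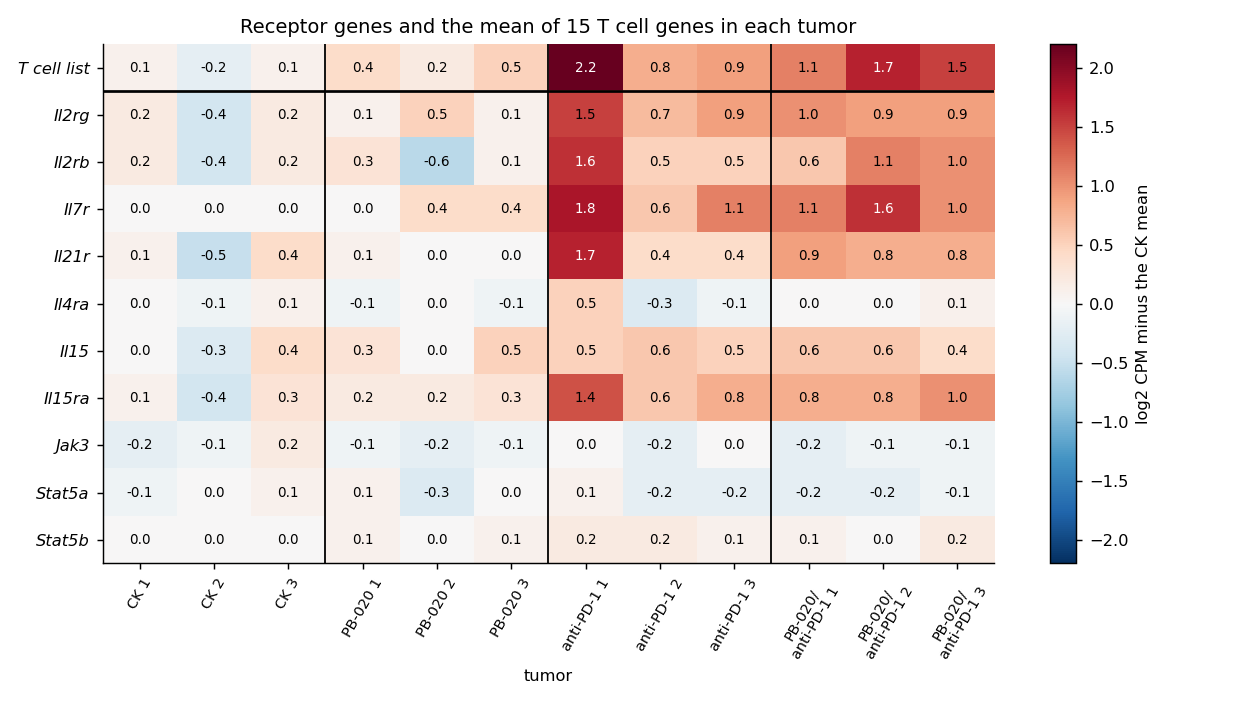
Log2 CPM minus the CK mean (color and number) for each gene and for the mean of the 15 T cell genes (y axis) in each of the 12 tumors (x axis). Anti-PD-1 tumor 1 is the darkest column for the T cell list and for Il2rg, Il2rb, Il7r, Il21r and Il15ra, but not for Il15, and the rows of Jak3, Stat5a and Stat5b stay between -0.27 and 0.22.

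For the 4 genes that passed in a comparison with CK, the genes with the most similar log2 CPM across the 12 tumors were looked up (Pearson r, n = 12, a description in which group, cell content and library are shared). Il2rg was nearest to Noct (r = 0.983), Nrg1 (0.974) and Hbegf (0.970), none of which is a marker in the lymphocyte lists. Il7r was nearest to Nkg7 (0.971), a gene of cytotoxic lymphocytes, Acap1 (0.969) and Il12rb2 (0.967), a chain of the IL-12 receptor. Il15 was nearest to Sp140 (0.956), B2m (0.953), the light chain of MHC class I, and the interferon-induced chemokine Cxcl10 (0.948). Among the genes nearest to Il15ra were Serpina3g (0.967) and the interferon-induced transcription factor Irf1 (0.967). Without anti-PD-1 tumor 1 these r values lay between 0.952 and 0.982.

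The remaining genes of the pathway, 35 in 5 lists, gave 28 that could be tested. With anti-PD-1, 4 were raised and 0 lowered against CK (4.18% of all genes tested were raised), with the combination 4 were raised and 1 lowered (8.35% of all genes raised), and with PB-020 0 were called. In the contrast averaged over both PB-020 states 9 were raised and 1 lowered (11.8% of all genes raised). Their median log2 change was 0.14 with anti-PD-1 and 0.15 with the combination.

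Among the other cytokines, only Il7 had enough counts. Il7 measured 2.66 to 3.47 FPKM in CK tumors and 3.54 to 4.39 in combination tumors, with a log2 change of 0.48 (SE 0.16, adjusted p = 0.0515, edgeR) that did not pass, while the contrast averaged over both PB-020 states did (0.36, SE 0.11, adjusted p = 0.0341). Il2 and Il4 had 0 to 2 counts in a tumor, Il13 0 to 4, Il21 0 to 6 and Tslp 1 to 11, so that differences in these cytokines were not detectable at this depth. Il9 was not analysed here.

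Among the other receptor chains, Il2ra, the chain that gives the IL-2 receptor its high affinity and that marks regulatory and activated T cells, measured 0.69, 0.74 and 0.84 FPKM in CK, 2.2, 0.73 and 0.86 in anti-PD-1 and 1.64, 1.44 and 0.92 in combination tumors. Only anti-PD-1 tumor 1 stood clearly above CK in the antibody group. The log2 changes, 0.75 (SE 0.37, adjusted p = 0.216, edgeR) and 0.84 (SE 0.37, adjusted p = 0.131), did not pass, while the averaged contrast did (0.87, SE 0.26, adjusted p = 0.0306). Il13ra1, a partner of the IL-4 receptor alpha chain, was raised with the combination (0.52, SE 0.17, adjusted p = 0.0497). Il9r had 0 to 3 counts and was not tested.

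Of 6 other kinases and STATs, 1 was raised and 0 lowered against CK with anti-PD-1, and 1 was raised and 1 lowered with the combination. Over all genes tested, 4.18% and 8.35% were raised, and 1302 genes were lowered with the combination. The raised gene is not reported here. Jak1, the kinase of the partner chains, was lowered with the combination by a small amount: from 60.4 to 63.2 FPKM in CK to 50.6 to 55.6 FPKM (log2 change -0.19, SE 0.06, adjusted p = 0.0423, edgeR).

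Of 7 negative regulators of the pathway, 2 were raised and 0 lowered against CK with anti-PD-1, and likewise with the combination. Over all genes tested, 4.18% and 8.35% were raised. In the contrast averaged over both PB-020 states 3 of the 7 were raised, where 11.8% of all genes were. In that contrast 1 regulator, Sh2b3, was lowered (log2 change -0.17, SE 0.06, adjusted p = 0.0451, edgeR). Socs1, an inhibitor of JAK kinases, measured 12.02, 9.85 and 15.3 FPKM in CK, 32.5, 15.97 and 21.7 in anti-PD-1 and 18.2, 25.6 and 22.5 in combination tumors, with no overlap between CK and either group. Its log2 change was 0.93 (SE 0.25, adjusted p = 0.0498, edgeR) with the antibody and 0.85 (SE 0.26, adjusted p = 0.044) with the combination. Ptpn2, a phosphatase that acts on JAK and STAT proteins, rose by 0.29 (SE 0.08, adjusted p = 0.0348) and 0.33 (SE 0.08, adjusted p = 0.011). Cish, a classical STAT5-induced inhibitor, had log2 changes of 0.46 (adjusted p = 0.209) and 0.38 (adjusted p = 0.252), which did not pass.

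Of 10 genes known as STAT5 targets, 1 was raised with anti-PD-1 (4.18% of all genes tested were) and 0 with the combination (8.35%). In the contrast averaged over both PB-020 states 2 of the 10 were raised and 0 lowered, where 11.8% of all genes were raised. There 8 of the 10 had a higher value and 2 a lower one. The one raised with anti-PD-1 alone was Pim1, a survival kinase, with 18.5, 14.2 and 28.1 FPKM in CK and 39.6, 30.5 and 36.0 FPKM in anti-PD-1 tumors (log2 change 0.83, SE 0.19, adjusted p = 0.0298, edgeR). With the combination its log2 change was 0.51 (SE 0.19, adjusted p = 0.0946). Pdcd1, the target of the antibody, had a log2 change of 1.79 (SE 0.37, adjusted p = 0.0168) with anti-PD-1, and Igf1r, the target of PB-020, had -0.06 (95% interval -0.19 to 0.08) with PB-020.

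**Figure D4:**
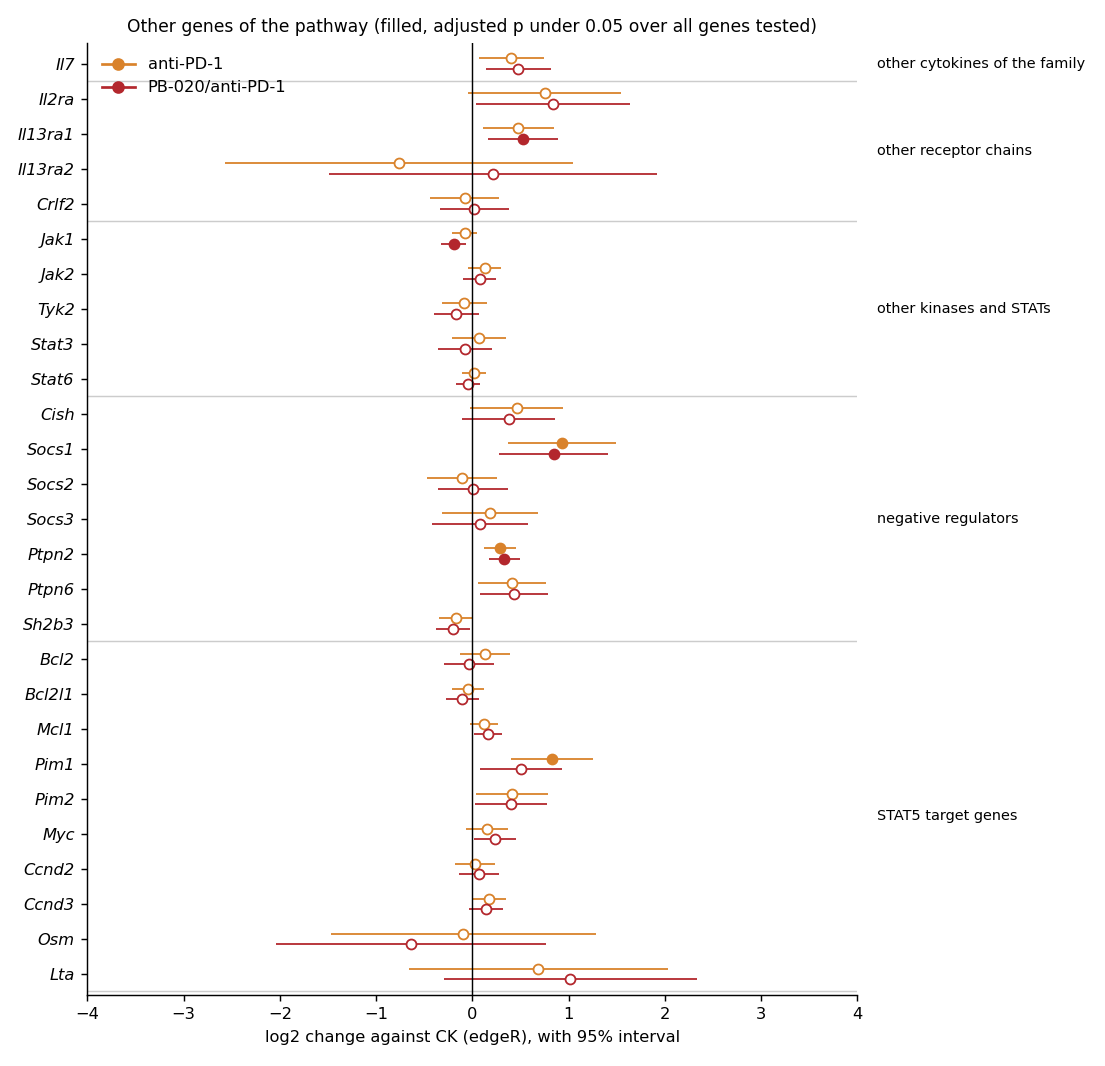
Log2 change against CK (x axis) of tested genes of the pathway lists (y axis, grouped by list) with the antibody alone and with both drugs (colors), from edgeR; lines are 95% intervals and filled points passed an adjusted p of 0.05 over all genes tested. Socs1 and Ptpn2 are filled to the right of 0 in both comparisons, Jak1 is filled to the left with the combination, and most STAT5 target genes lie close to 0.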

How the data were processed

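RNA of 12 MC38 tumors, 3 in each of 4 groups, was sequenced by the authors as pairs of 150 bases. Per their methods the reads were aligned with Bowtie2 at default settings to mm10 or hg19 and quantified with RSEM, while the submitters' processing notes name HISAT, Bowtie2 and GRCm38.p6. Versions and annotation are not given in the sources used here. The authors deposited expected counts, which are estimated by RSEM, not normalized, and whole in 91% of values (tolerance 1e-06). The deposited FPKM values were divided by the authors by transcript length and library total, and the deposited TPM values, scaled by the authors to the same sum in each library, were read only to check the table. Group averages of the authors were not used.

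Expected counts were rounded, genes filtered with filterByExpr (minimum count 10), libraries scaled by TMM, and a robust quasi-likelihood model with 4 group means fitted to all 12 libraries (edgeR 4.0.16, R 4.3.3). Tests were two-sided with Benjamini-Hochberg adjustment over 13563 genes and a threshold of 0.05. Standard errors and 95% intervals come from this model. The antibody contrast averaged over PB-020 compares 6 with 6 tumors. FPKM was described without a test. The model was tested on simulated counts. The labels do not say that the tumors of a group came from separate mice, so p-values measure only the spread between these samples.

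The members, the pathway and marker lists, and the tests were chosen with earlier results of these data known. Named were all members, the pathway genes past the threshold against CK or failing the filter, both drug targets, and per member past the threshold the 3 genes with the highest Pearson r of log2 CPM (prior count 2). Some genes that this rule names are not reported here. Il2ra, Il7 and Cish were added once their values were known. Gene numbers matched RefSeq of GRCm38.p6 for 18091 of 18211 genes (99.3%). Stat5a and Stat5b were compared in GENCODE transcripts. Alternatives were DESeq2 1.42.0, limma 3.58.1 on log2(FPKM + 1) and log2(FPKM + 0.1), a strict filter (50 counts in 3 libraries) or none, library size or median-of-ratios scaling, fits to the compared groups alone, a block for the replicate number, leaving out each library, and the per-gene test of the study's methods on FPKM with a 1.5-fold limit. Leaving out both libraries that stood apart was added after seeing the data.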

Additional observations from a re-analysis of the deposited data

How the results depend on the processing

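The count of members called against CK was 3 with anti-PD-1 and 4 with the combination. For anti-PD-1 it became 5 with DESeq2, 0 with only the groups compared and 0 under the study's rule on FPKM, and ranged from 0 to 4 with a library left out. For the combination it ranged from 1 to 6 with a library left out. Between the combination and PB-020, 0 members were called, against 3 with DESeq2, 4 with only the groups compared, 4 without both libraries that stood apart, and 0 to 4 with a library left out. The averaged antibody contrast called 6 members in each alternative that could be run other than leaving out a library (4 to 6). PB-020 against CK, its averaged contrast, the interaction and the combination against anti-PD-1 gave 0 in each. The cause of these shifts was not tested, except that leaving out a library leaves fewer tumors to estimate the spread.

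Over all alternatives, the log2 change with anti-PD-1 stayed between 0.77 and 1.19 for Il2rg (adjusted p 5.4e-06 to 0.11), 0.87 and 1.48 for Il7r (6.2e-05 to 0.087) and 0.65 and 1.08 for Il15ra (0.00063 to 0.13). With the combination it stayed between 0.74 and 0.998 for Il2rg (5e-05 to 0.071), 0.996 and 1.38 for Il7r (2.9e-05 to 0.05), 0.34 and 0.70 for Il15 (0.0039 to 0.19) and 0.66 and 1.02 for Il15ra (0.00073 to 0.067).

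Signs turned only for uncalled changes. With anti-PD-1, Il4ra became -0.0250 in limma with a pseudocount of 1, -0.0274 with 0.1 and -0.14 without both libraries that stood apart, and lay between -0.21 and 0.20 with a library left out, while Jak3 became 0.0132 without both libraries and lay between -0.136 and 0.0509 with a library left out. With the combination, Il4ra became -0.0406 and -0.0422 in limma with these pseudocounts and -0.00603 with library size alone, and lay between -0.0424 and 0.0929 with a library left out. With PB-020, Il2rb became 0.0642 and Il21r 0.18 without both libraries, and leaving out a library gave -0.24 to 0.18 for Il2rb, -0.23 to 0.18 for Il21r, -0.0156 to 0.328 for Il15ra and -0.152 to 0.0266 for Stat5a.

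The labels number the tumors 1 to 3 in each group. Same-numbered tumors deviated from their group means with r between -0.21 and 0.29, above 0.1 in 2 of 18 pairs, and 3 of 12 tumors correlated best with their own number, so the numbers were not taken as pairs. With the replicate block, 3 members were called with anti-PD-1 and 4 with the combination, as without it, and Il21r with PB-020 became 0.00104.

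Genes with few counts, such as the cytokines Il2, Il4 and Il21, are limited by depth.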
